A study of Mus musculus with 15 samples.

Results

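The genes described here are 34 chemokines and chemokine receptors, 23 ligands and 11 receptors, followed through the C/EBPα-induced conversion of pre-B cells into macrophage-like cells (iMΦ). They were taken from a list of gene names that was chosen with earlier results of these data known. They are compared with the 22342 starts of protein-coding genes in the mouse annotation. All 34 were found in mm9, and each was counted. Cxcl11 is annotated there only as a non-coding transcript, so its start was taken from that record.

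Chemokines are small secreted proteins that draw leukocytes along a gradient by binding G-protein-coupled receptors on the cell surface. They are named by the spacing of their first cysteines (CC, CXC and CX3C), and many sit side by side in the genome in clusters of related genes. Macrophages are a major source of inflammatory chemokines and carry several of the receptors, whereas B-lineage cells use others to stay in the bone marrow or to reach the lymph node and the follicle.

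The cells were C10 cells, a pre-B line derived from Haftl cells that carries a C/EBPα-estrogen receptor fusion tagged with GFP. β-estradiol moves the fusion into the nucleus, and the labels describe induced cells as grown with IL-3 and CSF-1 and control cells as given ethanol, so effects of the fusion and of the added factors cannot be told apart. All samples carry the fusion. Chromatin immunoprecipitation with antibodies to H3K27Ac, H3K4Me1 and H3K27Me3 was sequenced at 0, 3, 12, 24 and 48 hr post-induction (hpi), 1 library for each mark and time, 15 in all.

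With 1 library for each mark and time there was no replicate and no test between times, so every difference below lacks a replicate check, and its interval (95%, exact) covers counting error only. The deposited files held 11041458 to 31557475 tag lines. The 5 libraries of a mark were thinned to equal depth, 15216488 tags for H3K27Ac, 10913733 for H3K4Me1 and 15338280 for H3K27Me3. Tags were counted in 3 kb (5 kb for H3K27Me3) centred on each start, so levels of different genes are on one scale of tags per window. Changes are log2 of (tags at 48 hpi + 5) over (tags at 0 hpi + 5), a start was called higher or lower past 2-fold, and a window was called marked at 34 H3K27Ac, 27 H3K4Me1 or 50 H3K27Me3 tags (Poisson p of 0.001 over the mean window). More of a mark per cell and more cells with the mark cannot be told apart in such libraries.

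The labelled change of cell type was checked at marker starts. H3K27Ac was at least 2-fold lower at 48 hpi at all 8 B-lineage markers (median −1.59) and higher at all 8 macrophage markers (median 2.28), while none of 6 T-lineage markers was called in either direction. Of 8 granulocyte markers 3 were higher (Camp, S100a8 and Elane). The summed H3K27Ac of these 8 was 681 tags at 0 hpi, 2266 at 24 hpi and 1647 at 48 hpi, against 658, 4527 and 3840 for the macrophage markers, and the part of granulocyte-like cells in the results was not tested. Prtn3 alone gave 629 tags of the granulocyte sum before induction and 492 in the 48 hpi library, whereas Camp gave 12 and 992. The granulocyte sums therefore rest largely on Prtn3 and Camp, and their ratio does not describe the other granulocyte markers. None of 6 genes used in every cell was called, but their median change was −0.55. The H3K27Ac libraries of 0 and 3 hpi stood apart in a 90 kb segment of the Igh locus, where they held 523 and 438 tags against 23 in the other 13 libraries together. Values with the 12 hpi library in place of 0 hpi are therefore given where they end a call. Enriched bins took 78.1% of the H3K27Ac tags at 24 hpi and 63.2 to 69.5% at the other 4 times, a difference that stands beside every 24 hpi maximum below, and its part in them was not tested. They took 56.9% of the H3K4Me1 tags at 0 hpi and 64 to 70.7% later, which stands beside every H3K4Me1 change from 0 hpi, and its part in these was not tested. Scaling by background bins shifts H3K4Me1 at 48 hpi by a further 0.55 (log2).

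Of the 34 genes, 13 had at least 2-fold higher H3K27Ac at 48 hpi, 10 ligands and 3 receptors, where 5.25% of all protein-coding starts were called higher. The 3 called lower, where 9.46% of all starts were, were all receptors. In H3K4Me1, 12 were higher (3.37% of all starts), namely Ccl2, Ccl4, Ccl7, Ccl12, Ccl17, Ccl22, Ccl24, Cxcl2, Cxcl11, Ccr3, Cxcr2 and Cx3cr1, and 1 was lower (9.78% of all starts). In H3K27Me3, 1 was higher (0.846% of all starts) and 0 were lower (1.55% of all starts). These splits moved with the scaling. By bins enriched at all 5 times, 9.43% of all starts were higher and 5.03% lower in H3K27Ac, and 0.304% and 2.25% in H3K27Me3. Of the 34 genes 18 were then higher and 1 lower in H3K27Ac, and 0 either way in H3K27Me3. By background bins, 7.03% were higher and 4.34% lower in H3K4Me1, and 1.43% and 0.824% in H3K27Me3, and of the 34 genes 14 were higher and 1 lower in H3K4Me1, and 1 and 0 in H3K27Me3. The median change in H3K27Ac was 0.75 for the 34 genes, 0.82 for the ligands and 0.00 for the receptors, against −0.14 for all starts. For 24 further genes of the pathway, not on the list, it was 0.12, with 2 higher and 4 lower. With 12 hpi in place of 0 hpi, which leaves out what changed before 12 hpi, 7 were higher and 0 lower, where 2.39% and 4.69% of all starts were called.

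**Figure D1:**
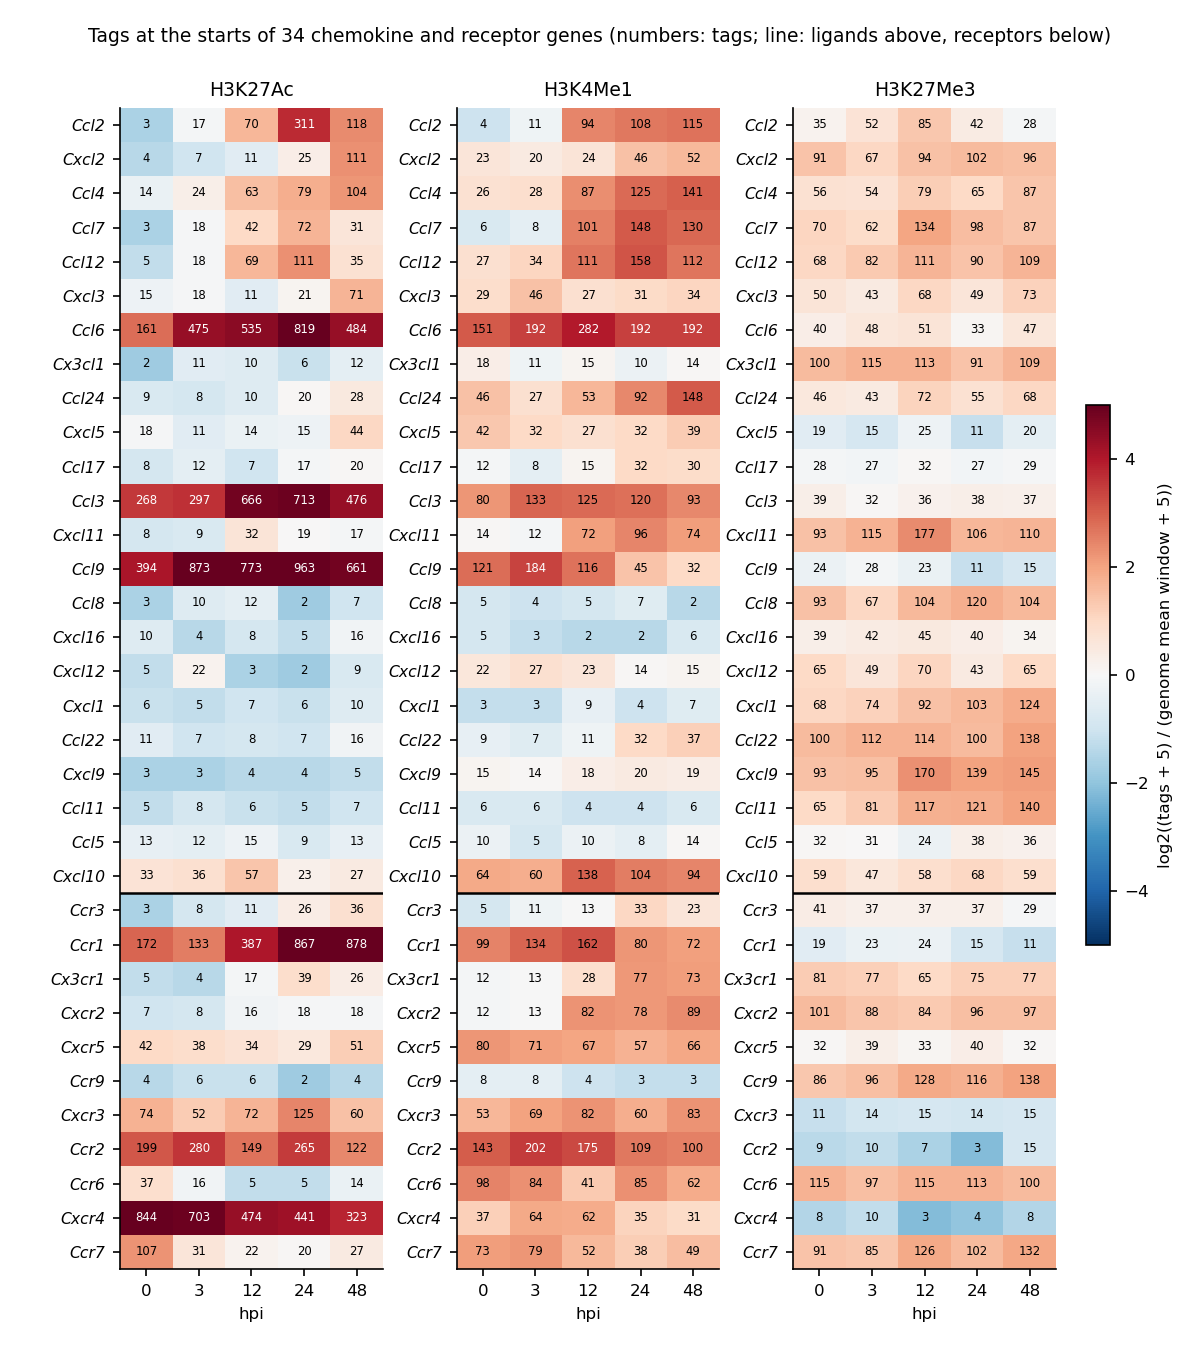
Tags at the 34 gene starts by mark and time. Each cell holds the tag count, its colour is log2 of (tags + 5) over (mean genome window + 5), and within ligands (above the line) and receptors (below it) rows run from the largest to the smallest H3K27Ac change from 0 to 48 hpi. H3K27Ac is highest at Ccl9, Ccr1, Cxcr4, Ccl6 and Ccl3, and many ligand rows that are blue in H3K27Ac at 0 hpi are red in H3K27Me3 at every time.

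**Figure D2:**
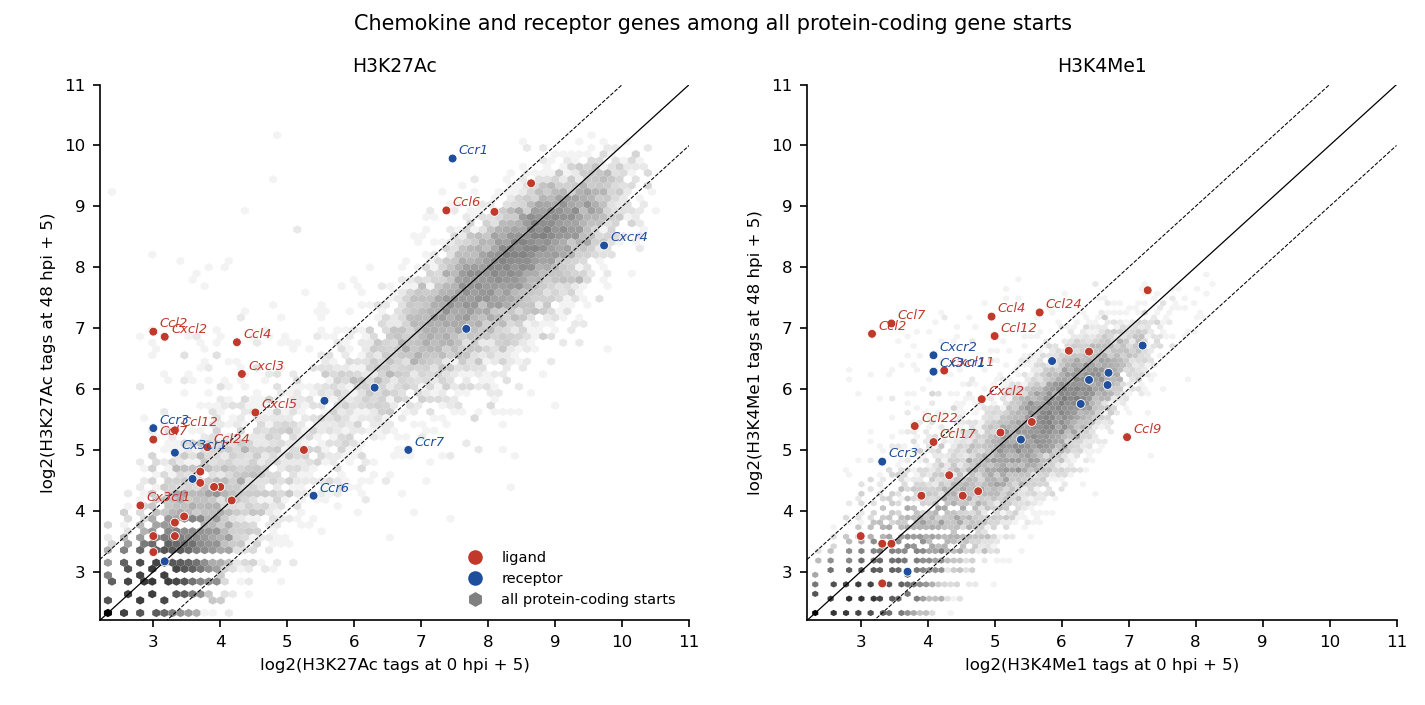
H3K27Ac (left) and H3K4Me1 (right) at 0 hpi against 48 hpi, as log2(tags + 5), for all protein-coding starts (grey hexagons, darker for more starts) and for ligands (red) and receptors (blue). Dashed lines mark 2-fold; 13 of the 34 genes lie above the upper line and 3 below the lower line in H3K27Ac, and genes past 2-fold are named.

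The promoters of the 6 genes with the largest H3K27Ac difference upward, among those with at least 50 tags at 48 hpi, are shown because the difference was measured around these sequences. They were read from the mm9 assembly from 250 bases before to 50 bases after the start, 5′ to 3′ on the gene's strand, as chr11:81848823-81849122 (Ccl2, plus), chr5:91332647-91332946 (Cxcl2, plus), chr11:83475836-83476135 (Ccl4, plus), chr9:123883476-123883775 (Ccr1, minus), chr5:91214879-91215178 (Cxcl3, plus) and chr11:83406540-83406839 (Ccl6, minus). Capitals mark matches, on either strand, to TTGCNNAA (C/EBP), AGGAAGT (PU.1), TGANTCA (AP-1), GGNNTTTCC (NF-kB), TTTCNNTTT (interferon response) or TGTGGT (Runx).
Ccl2: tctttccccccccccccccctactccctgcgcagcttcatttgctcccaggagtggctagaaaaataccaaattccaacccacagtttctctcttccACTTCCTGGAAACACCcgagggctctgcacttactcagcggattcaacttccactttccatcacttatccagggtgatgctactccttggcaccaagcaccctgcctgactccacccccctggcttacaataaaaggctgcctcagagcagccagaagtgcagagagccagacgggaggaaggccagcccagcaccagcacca
Cxcl2: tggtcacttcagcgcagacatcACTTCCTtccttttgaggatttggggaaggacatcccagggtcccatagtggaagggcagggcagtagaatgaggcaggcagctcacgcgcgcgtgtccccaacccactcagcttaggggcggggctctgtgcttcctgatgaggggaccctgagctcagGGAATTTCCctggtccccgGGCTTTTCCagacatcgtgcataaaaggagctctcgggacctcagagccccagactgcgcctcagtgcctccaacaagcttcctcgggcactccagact
Ccl4: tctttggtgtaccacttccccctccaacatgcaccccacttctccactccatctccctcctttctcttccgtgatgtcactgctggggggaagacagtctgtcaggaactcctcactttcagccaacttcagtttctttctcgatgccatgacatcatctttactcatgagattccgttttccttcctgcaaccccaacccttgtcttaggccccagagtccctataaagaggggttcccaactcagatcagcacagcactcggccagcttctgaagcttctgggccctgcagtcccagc
Ccr1: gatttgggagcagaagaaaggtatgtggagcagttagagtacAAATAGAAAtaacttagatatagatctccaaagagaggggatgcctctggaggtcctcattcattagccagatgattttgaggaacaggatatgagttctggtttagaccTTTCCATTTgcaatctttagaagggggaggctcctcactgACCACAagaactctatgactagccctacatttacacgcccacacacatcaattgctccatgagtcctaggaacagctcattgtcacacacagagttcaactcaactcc
Cxcl3: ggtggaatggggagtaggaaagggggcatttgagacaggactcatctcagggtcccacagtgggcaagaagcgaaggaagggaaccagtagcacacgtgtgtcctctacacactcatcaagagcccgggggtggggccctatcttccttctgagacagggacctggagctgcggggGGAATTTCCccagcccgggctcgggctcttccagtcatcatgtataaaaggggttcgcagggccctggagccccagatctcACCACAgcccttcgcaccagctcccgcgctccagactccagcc
Ccl6: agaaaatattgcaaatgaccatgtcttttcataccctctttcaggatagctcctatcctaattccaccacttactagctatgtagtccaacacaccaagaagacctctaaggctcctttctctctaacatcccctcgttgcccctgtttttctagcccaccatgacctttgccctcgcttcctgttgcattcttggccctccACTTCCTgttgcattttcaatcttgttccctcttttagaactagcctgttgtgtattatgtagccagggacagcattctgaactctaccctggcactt

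The letters GGNNTTTCC were found 146 bases before the start of Ccl2, 68 and 49 bases before that of Cxcl2 and 74 bases before that of Cxcl3. AGGAAGT was found 153 bases before the start of Ccl2, where it touches the former, 228 bases before that of Cxcl2 and 48 bases before that of Ccl6. Ccr1 held TTTCNNTTT 208 and 98 bases and TGTGGT 58 bases before its start. In Cxcl3 TGTGGT began 7 bases after the start, and Ccl4 held none of the 6. Over the 34 promoters, GGNNTTTCC was in 11 (Ccl2, Ccl5, Ccl9, Cxcl1, Cxcl2, Cxcl3, Cxcl5, Cxcl9, Cxcl10, Cxcr5 and Ccr3), against 5.65% of all 22342 promoters of that length. AGGAAGT was in 8 (9.02% of all), TGANTCA in 6 (6.79%), TTTCNNTTT in 6 (10.9%), TGTGGT in 9 (15.1%) and TTGCNNAA in 1, Cxcl5 (10.2%). The promoters held a median of 3.5 CG pairs in 300 bases, against 12 over all promoters; Cxcr4 and Cxcl12 held 20 each, and Ccr1, Ccr2, Ccr3, Ccl5, Ccl7 and Cxcr3 held 1 each. A match describes letters and no binding.

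In the Ccl2 to Ccl8 cluster of CC ligands (chr11:81839073-81940301), Ccl2, Ccl7 and Ccl12 had almost no H3K27Ac at 0 hpi and a maximum at 24 hpi. Ccl2, which attracts monocytes through Ccr2, had 3, 17, 70, 311 and 118 H3K27Ac tags at 0, 3, 12, 24 and 48 hpi. The 48 hpi count was 39.3 times that at 0 hpi (13.1 to 193), and the log2 change was 3.94. Ccl2 first reached the marked level at 12 hpi, and its 48 over 24 hpi change was −1.36. Ccl7, its neighbour and also a Ccr2 ligand, had 3, 18, 42, 72 and 31 tags (ratio 10.3, 3.22 to 52.8), and Ccl12, another Ccr2 ligand, had 5, 18, 69, 111 and 35 (log2 change 2.00, 1.12 to 2.70). All 3 were lowest at 0 hpi, highest at 24 hpi and lower again at 48 hpi. With 12 hpi in place of 0 hpi the changes of Ccl2, Ccl7 and Ccl12 were 0.71, −0.38 and −0.89. In contrast, Ccl8 had 2 to 12 tags and Ccl11, the eosinophil attractant eotaxin, 5 to 8 in every library, both below the marked level.

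H3K4Me1 at Ccl2, Ccl7 and Ccl12 held most of its later tags by 12 hpi. At Ccl2 it was 4, 11, 94, 108 and 115 tags (log2 change 3.74, 2.93 to 4.33), and at Ccl7 it was 6, 8, 101, 148 and 130 (3.62, 2.86 to 4.26). Ccl12, which was at the marked level already at 0 hpi, had 27, 34, 111, 158 and 112 (1.87, 1.32 to 2.43). At 12 hpi Ccl2 thus had 94 H3K4Me1 tags against 115 at 48 hpi. Its H3K27Ac was 70 tags, against 118 at 48 hpi and 311 at 24 hpi. H3K27Ac at Ccl7 and Ccl12 was higher at 12 than at 48 hpi, with 42 against 31 and 69 against 35 tags. Over the whole cluster H3K27Ac was 117, 325, 587, 1354 and 710 tags (log2 change 2.60, 2.32 to 2.90) and H3K4Me1 was 189, 208, 1133, 1652 and 1719 (3.19, 2.97 to 3.41). In the 37.4 kb between Ccl11 and Ccl12, chosen after its values were seen, H3K4Me1 was 11.3 times as high at 48 as at 0 hpi (8.77 to 14.9) and H3K27Ac 3.24 times (2.23 to 4.79). The 6.76 kb between Ccl2 and Ccl7, also chosen after its values were seen, had 12, 57, 127, 432 and 195 H3K27Ac tags (16.2 times, 9.09 to 32). It holds the protein-coding gene Gm17268, which is not on the list. The listed start windows held 27.9% of the H3K27Ac tags of the cluster at 48 hpi. No acetylated region of this cluster at 48 hpi had its highest bin more than 2.5 kb from an annotated protein-coding start, those of unlisted genes included.

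Of the 34 genes, 7 were at least 2-fold above 0 hpi with their maximum at 24 hpi (Ccl2, Ccl3, Ccl6, Ccl7, Ccl9, Ccl12 and Cx3cr1), against 2.71% of all starts. At least 2-fold lower at 48 than at 24 hpi were 5 (Ccl2, Ccl7, Ccl12, Ccr2 and Cxcr3), against 1.81% of all starts. Both counts moved with the scaling, which was tried here after seeing the data. By bins enriched at all 5 times they were 6 (1.52% of all starts) and 1, Ccl12 (0.416%), and by background bins 14 (11.7%) and 10 (19.5%).

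The second CC cluster, Ccl5 to Ccl4 (chr11:83329280-83488185), held the ligands that were acetylated already in the uninduced cells. Ccl9 and Ccl6, mouse ligands of Ccr1 made by myeloid cells, had 394, 873, 773, 963 and 661 and 161, 475, 535, 819 and 484 H3K27Ac tags. The log2 changes were 0.74 (0.56 to 0.92) for Ccl9, below the call (1.37 in a 6 kb window), and 1.56 (1.30 to 1.82) for Ccl6. Both were more than 2-fold higher by 3 hpi, by 1.14 and 1.53 on the log2 scale, and with 12 hpi in place of 0 hpi their changes were −0.22 and −0.14. Ccl3, a ligand of Ccr1, had 268, 297, 666, 713 and 476 tags (0.82, 0.60 to 1.03, and −0.48 with 12 hpi in place of 0 hpi). Its step lay between the 3 and 12 hpi libraries. There the H3K27Ac libraries that stood apart at the Igh locus also give way to the others, so time and library cannot be told apart. Ccl4, an attractant of monocytes and T cells, had 14, 24, 63, 79 and 104 tags (2.52, 1.87 to 3.17) and was the one gene of this cluster below the marked level at 0 hpi and above it at 48 hpi. With 12 hpi in place of 0 hpi the change of Ccl4 was 0.68. Ccl5 stayed at 9 to 15 tags.

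H3K4Me1 at these starts had another course. At Ccl9 it was 121, 184, 116, 45 and 32 tags (log2 change −1.77, −2.29 to −1.25), the one call lower among the 34 genes, while H3K27Ac there was at 661 tags or more from 3 hpi on. In 6 kb in place of 3 kb the H3K4Me1 change at Ccl9 was −0.44. At Ccl6 it was 151, 192, 282, 192 and 192, at Ccl3 80, 133, 125, 120 and 93, and at Ccl4 26, 28, 87, 125 and 141 (2.24, 1.70 to 2.79).

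Most of the acetylation of this cluster lay outside the 5 start windows. Over the cluster H3K27Ac was 2770, 5856, 8134, 11623 and 10042 tags (log2 change 1.86, 1.80 to 1.92), and the share within the start windows went from 30.7% at 0 hpi to 17.3% at 48 hpi. Enriched 1 kb bins covered 32 kb at 0 hpi and 97 kb at 48 hpi, and the longest acetylated region at 48 hpi was 75 kb. The 53.3 kb between Ccl6 and Ccl3 (chr11:83408089-83461345), in which no other protein-coding gene is annotated and which was chosen after its values were seen, held 934, 2157, 3605, 5700 and 5541 H3K27Ac tags, 5.93 times as many at 48 as at 0 hpi (5.53 to 6.37). The 7.75 kb between Ccl9 and Ccl6 held 19, 108, 87, 167 and 260. The distal region with the highest bin at 48 hpi, 9356 bp downstream of the Ccl3 start (chr11:83452001-83455000), was acetylated from the outset with 424, 634, 890, 1054 and 978 tags.

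**Figure D3:**
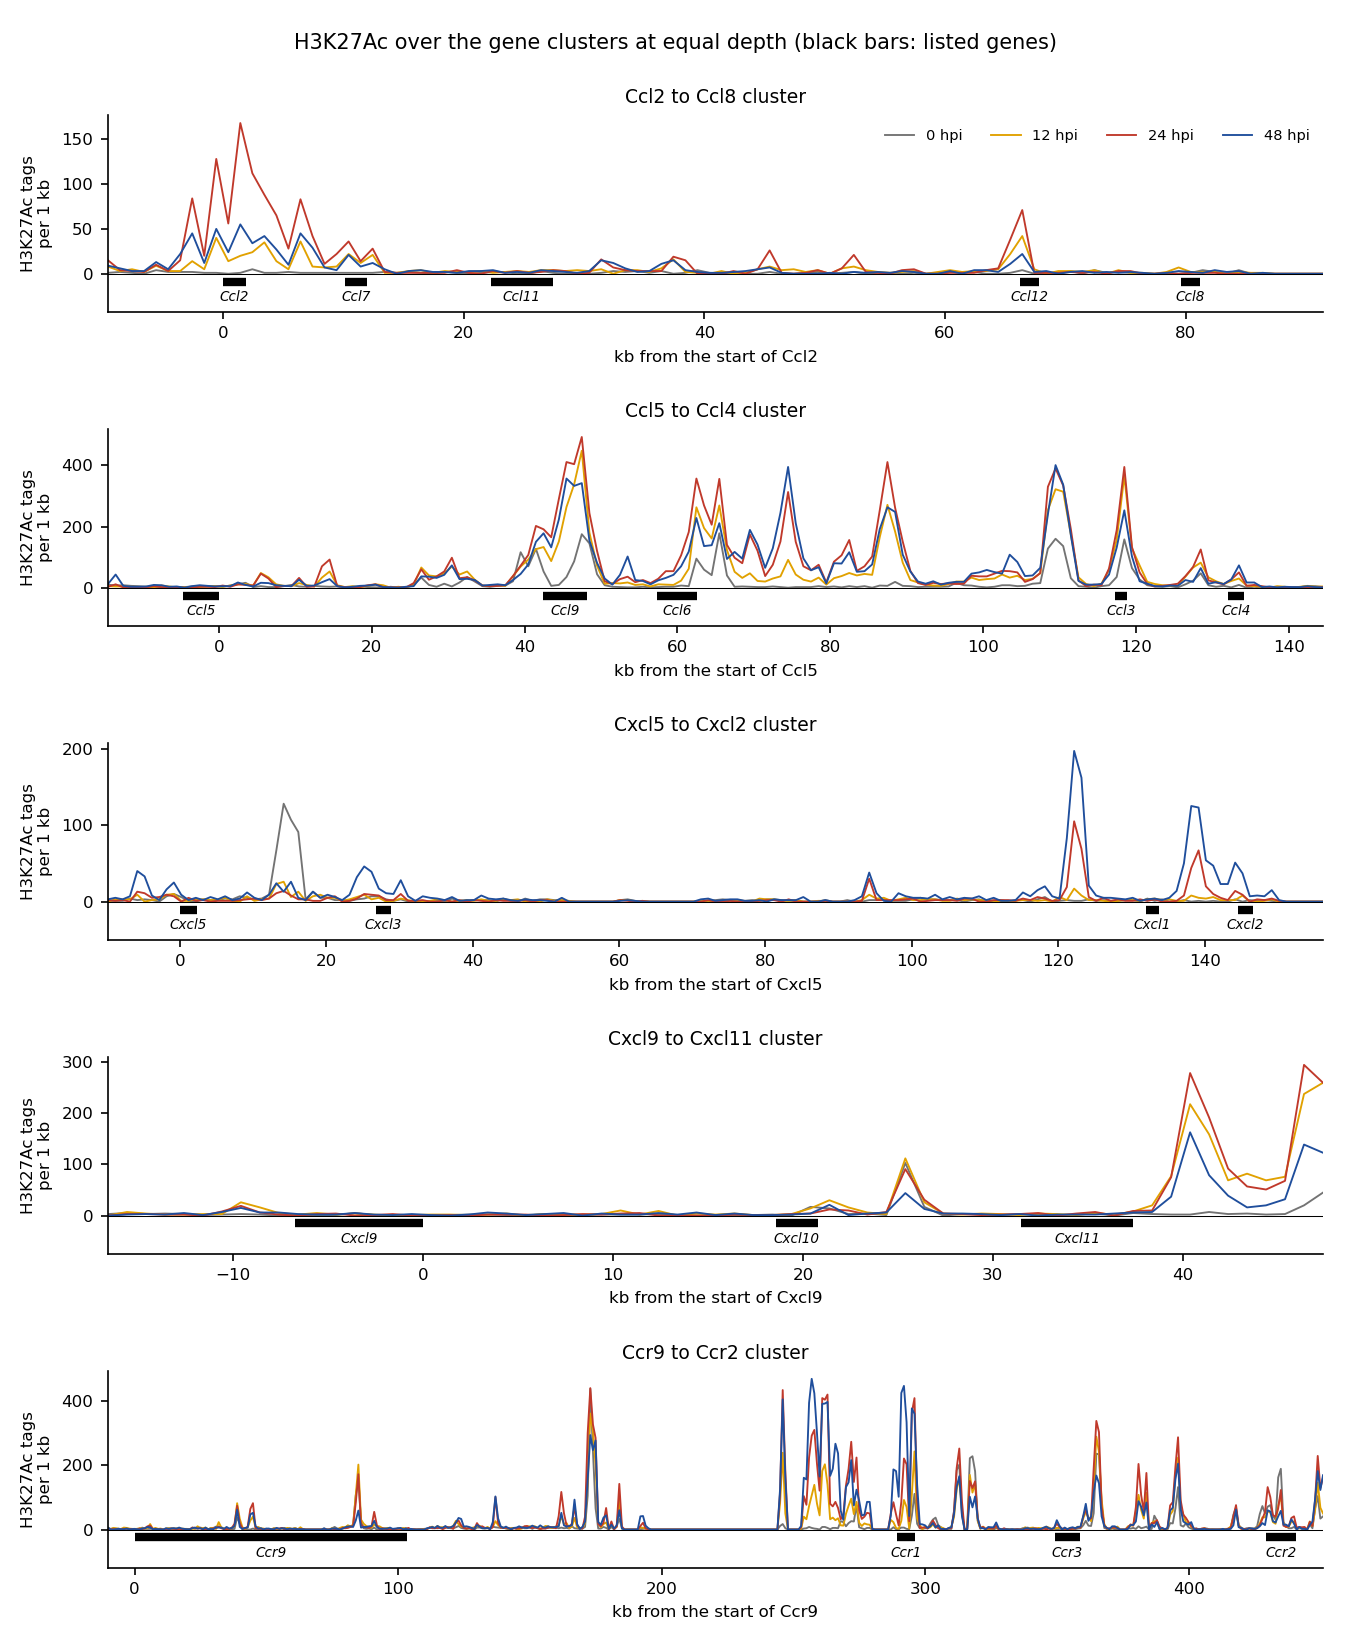
H3K27Ac tags per 1 kb bin at equal depth over 5 gene clusters at 0, 12, 24 and 48 hpi, against distance in kb from the start of the first listed gene. Black bars are the listed genes; the Ccl2 to Ccl8 cluster is highest at 24 hpi, Cxcl9 to Cxcl11 at 12 and 24 hpi with 1578 and 1579 tags, the Cxcl5 to Cxcl2 cluster at 48 hpi, and the Ccl5 to Ccl4 and Ccr9 to Ccr2 clusters hold acetylation between genes.

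The neutrophil-attracting CXC ligands, which act through Cxcr2, first reached the marked level of H3K27Ac at 48 hpi, except Cxcl1. Cxcl2 had 4, 7, 11, 25 and 111 tags (log2 change 3.69, 2.88 to 4.29), Cxcl3 had 15, 18, 11, 21 and 71 (1.93, 1.26 to 2.59), and Cxcl5 had 18, 11, 14, 15 and 44 (1.09, 0.40 to 1.77). All 3 were unmarked through 24 hpi and marked at 48 hpi. Cxcl1, between them in the genome and a close relative of Cxcl2, had 5 to 10 tags at all times. Of these, Cxcl2 and Cxcl3 kept their calls under all 11 alternatives of counting and scaling, and Cxcl5 was at 0.38 in a 1 kb window and at 0.75 with a pseudocount of 20. H3K4Me1 was 23, 20, 24, 46 and 52 at Cxcl2 (1.03, 0.39 to 1.66, and 0.74 with a pseudocount of 20), and at Cxcl3 and Cxcl5 it was near the marked level at every time, at 27 to 46 tags.

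The Cxcl5 to Cxcl2 cluster (chr5:91178325-91344935) as a whole had 689, 457, 425, 715 and 1916 H3K27Ac tags (log2 change 1.48, 1.35 to 1.60). Of its 689 tags at 0 hpi, 473 lay in the 23.0 kb between Cxcl5 and Cxcl3, which had 178, 143, 87 and 237 at 3, 12, 24 and 48 hpi. That interval was chosen after its values were seen and holds Ppbp and Pf4, CXC ligands of platelets; the Pf4 start had 200, 71, 53, 28 and 44 tags. The regions named by their highest bin at 48 hpi, a choice that favours a rise to that time, lay on both sides of Cxcl1. The region 9766 bp upstream of Cxcl1 (chr5:91309001-91312000) had 4, 24, 27, 193 and 442 tags (5.63, 4.86 to 6.21), and that 6234 bp downstream of it (chr5:91325001-91328000), between Cxcl1 and Cxcl2, had 3, 5, 14, 119 and 298 (5.24, 4.44 to 5.76). Both lie between genes and held more tags at 24 and 48 hpi than the start of any of the 4 listed genes of the cluster. Their H3K4Me1 was 11, 11, 24, 60 and 90 and 5, 7, 27, 72 and 82 tags.

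The interferon-inducible ligands Cxcl9, Cxcl10 and Cxcl11, which bind Cxcr3 and attract activated T cells, were not called in H3K27Ac at their starts. Cxcl10 had 33, 36, 57, 23 and 27 tags, Cxcl11 had 8, 9, 32, 19 and 17, and Cxcl9 had 3 to 5. The change of Cxcl11 was 0.76, and in a 6 kb window 2.87. H3K4Me1 was 14, 12, 72, 96 and 74 at Cxcl11 (2.06, 1.38 to 2.72), and it was 64, 60, 138, 104 and 94 at Cxcl10. The acetylated region of the cluster (chr5:92740357-92804511) with the highest distal bin was centred 2990 bp upstream of the annotated Cxcl11 start, within an intron of Art3 (chr5:92796001-92799000). It held 11, 82, 454, 546 and 279 H3K27Ac tags (4.15, 3.5 to 4.78) and 49, 147, 359, 301 and 278 H3K4Me1 tags (2.39, 1.98 to 2.81). In the 5 kb around it H3K27Me3 was 115, 98, 105, 60 and 55 (−1.0, −1.45 to −0.55). Cxcl11 is not annotated as protein-coding, so the 2.5 kb rule for distal regions did not count its start at 92794511. The highest bin of that region begins at 92797001, less than 2.5 kb from the Cxcl11 start. A further region 4586 bp upstream of Cxcl10 was acetylated at 0 hpi and lower at 48 hpi, with 121, 150, 141, 129 and 63 tags. The cluster change of 1.42 (1.24 to 1.61) rested on the 10 kb flanks, and without them it was −0.17. The region upstream of Cxcl11 lies in the flank beyond that gene, but the flanks were not left out separately.

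Other ligands had little H3K27Ac. Ccl24, an eosinophil attractant that binds Ccr3, had 9, 8, 10, 20 and 28 tags (1.24, 0.40 to 2.01), below the marked level at each time. Its change was 0.85 in a 6 kb window and 0.73 with a pseudocount of 20. Its H3K4Me1 was 46, 27, 53, 92 and 148 (1.58, 1.13 to 2.05), the highest 48 hpi count of any ligand outside the chromosome 11 clusters, and its H3K4Me1 change was 0.82 in a 6 kb window. Cx3cl1, the membrane-bound ligand of Cx3cr1, was called higher on 2, 11, 10, 6 and 12 tags (ratio 6.0, 1.34 to 55.2) and never reached the marked level. Its log2 change of 1.28 was 0.18 with 12 hpi in place of 0 hpi, 0.54 with a pseudocount of 20 and 0.94 in a 6 kb window. Its H3K4Me1 was 10 to 18 tags. Ccl17 and Ccl22, the Ccr4 ligands made by activated macrophages and dendritic cells, had 7 to 20 and 7 to 16 H3K27Ac tags, while their H3K4Me1 at 0 and 48 hpi was 12 and 30 (1.04, 0.25 to 1.80) and 9 and 37 (1.58, 0.78 to 2.33), neither past 2-fold in a 6 kb window. In their cluster (chr8:97259490-97345935) the region 7852 bp upstream of Ccl17 (chr8:97325001-97328000) had 11, 11, 13, 59 and 100 H3K27Ac tags (2.71, 2.02 to 3.38). Cxcl12, the stromal ligand of Cxcr4, and Cxcl16, the ligand of Cxcr6, had 2 to 22 and 4 to 16 tags; the window of Cxcl16 also holds the start of Zmynd15.

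Among receptors, Ccr1, which binds Ccl3, Ccl6 and Ccl9, had the most H3K27Ac at 48 hpi. It had 172, 133, 387, 867 and 878 H3K27Ac tags (2.32, 2.09 to 2.56), was marked at every time, and kept its call under all 11 alternatives, at 1.17 or more. H3K4Me1 at its start was 99, 134, 162, 80 and 72, a change of −0.43 and, in a 1 kb window, of −2.12. Ccr3, the eotaxin receptor of the same cluster, had 3, 8, 11, 26 and 36 tags (ratio 12.0, 3.79 to 60.9), with the 48 hpi value just past the marked level and no call in a 1 kb window (0.74). H3K4Me1 at Ccr3 was 5, 11, 13, 33 and 23 tags (1.49, 0.56 to 2.22, and 0.78 with a pseudocount of 20). Cx3cr1, the fractalkine receptor of monocytes and macrophages, had 5, 4, 17, 39 and 26 (1.63, 0.72 to 2.36, 0.49 with 12 hpi in place of 0 hpi, and 0.88 with a pseudocount of 20) in H3K27Ac and 12, 13, 28, 77 and 73 (2.2, 1.5 to 2.88) in H3K4Me1. Cxcr2, the receptor of the neutrophil attractants, had 7, 8, 16, 18 and 18 H3K27Ac tags, not called, and 12, 13, 82, 78 and 89 H3K4Me1 tags (2.47, 1.78 to 3.13).

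The 3 genes called lower in H3K27Ac were the receptors Cxcr4, Ccr7 and Ccr6. Cxcr4, which holds B-cell precursors in the bone marrow by its ligand Cxcl12, had 844, 703, 474, 441 and 323 H3K27Ac tags (−1.37, −1.56 to −1.19), the highest of the 34 genes at 0 hpi, and remained marked at 48 hpi. H3K4Me1 at Cxcr4 was 37, 64, 62, 35 and 31 tags. Ccr7, the lymph-node homing receptor, had 107, 31, 22, 20 and 27 (−1.81, −2.37 to −1.26), and was below the marked level from 3 hpi. Ccr6, the receptor of Ccl20, had 37, 16, 5, 5 and 14 (−1.14, −1.87 to −0.40). Scaling by bins that were enriched throughout shifts 48 hpi by 0.41 and the median of all starts from −0.14 to 0.11. Under it the changes of Cxcr4 and Ccr6 were −0.97 and −0.83, and only that of Ccr7 stayed past 2-fold. With 12 hpi in place of 0 hpi the changes of Cxcr4, Ccr7 and Ccr6 were −0.55, 0.25 and 0.93, so none of the 3 was past 2-fold lower. Ccr6 was also at −0.75 with a pseudocount of 20, at −0.58 in a 1 kb window and at −0.96 at the annotated start with the most H3K27Ac. Neither Ccr7 nor Ccr6 had a call in H3K4Me1 at the start used, where it was 73, 79, 52, 38 and 49 at Ccr7 and 98, 84, 41, 85 and 62 at Ccr6. Ccr6 has 4 annotated starts, and at that with the most H3K27Ac its H3K4Me1 change was −1.97, past 2-fold lower. At the starts used, both genes were marked by H3K27Me3 at every time, at 85 tags or more.

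Other receptors were not called. Ccr2, the Ccl2 receptor, had 199, 280, 149, 265 and 122 H3K27Ac tags (−0.68, −1.01 to −0.36), with no steady direction. Cxcr3, which binds Cxcl9, Cxcl10 and Cxcl11, had 74, 52, 72, 125 and 60, and Cxcr5, which guides B cells to follicles, had 29 to 51. Ccr9, the receptor for homing to thymus and gut, had 2 to 6; its window also holds the start of Slc6a20a. Ccr9 has 4 annotated starts, and at that with the most H3K27Ac its changes were 1.71 in H3K27Ac and 1.36 in H3K4Me1, both past 2-fold, against 0.00 and −0.70 at the start used.

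**Figure D4:**
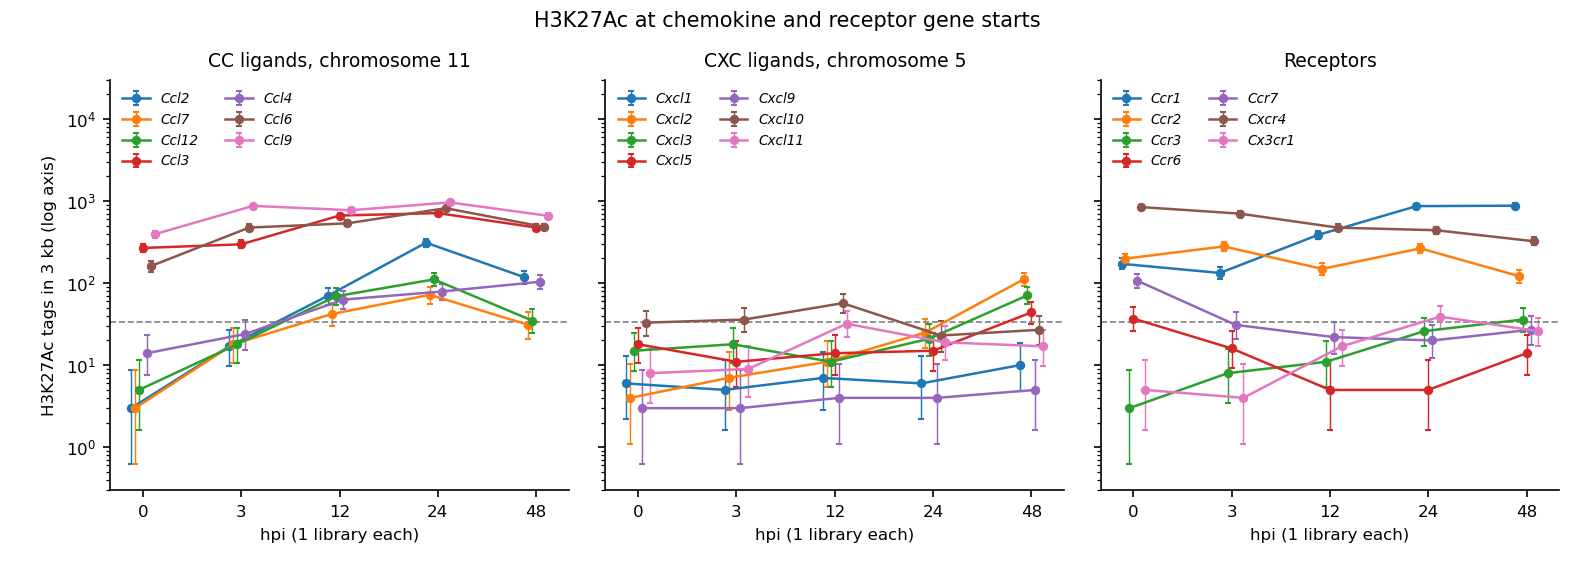
H3K27Ac tags in 3 kb (log axis) at starts of CC ligands of chromosome 11, CXC ligands of chromosome 5 and receptors, by time, with exact Poisson intervals. The dashed line is the marked level of 34 tags; Ccl2, Ccl7 and Ccl12 are highest at 24 hpi, Cxcl2, Cxcl3 and Cxcl5 cross the line at 48 hpi, and Ccr1 and Cxcr4 move in opposite directions.

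The CC receptor cluster, Ccr9 to Ccr2 (chr9:123577557-124038296), had 6028, 8230, 9588, 15243 and 15095 H3K27Ac tags (1.32, 1.28 to 1.37), of which the 4 listed start windows held 5.19 to 7.61%. The 186 kb between Ccr9 and Ccr1, chosen after its values were seen and holding Fyco1, Cxcr6, Xcr1 and Gm4694, had 1566, 2057, 3857, 7563 and 8448 tags (5.39 times, 5.11 to 5.70). The 50.2 kb between Ccr1 and Ccr3, which holds Ccr1l1, had 1334, 1014, 1017, 1201 and 910 (0.682 times, 0.626 to 0.743). The 69 kb between Ccr3 and Ccr2 had 1332, 2679, 2287, 2882 and 1864 (1.4 times, 1.3 to 1.5), highest at 24 hpi. These ratios are at equal depth, and scaling by bins enriched at all 5 times would raise each by 0.41 on the log2 scale. The region with the highest distal bin, 39024 bp downstream of the Ccr1 start (chr9:123843001-123846000) and 7641 bp from the nearest protein-coding start, that of Gm4694, had 16, 95, 318, 826 and 1287 H3K27Ac tags (5.94, 5.38 to 6.52) and 8, 62, 263, 270 and 258 H3K4Me1 tags. The next, in an intron of Ccr1 (chr9:123878001-123881000), had 14, 78, 189, 510 and 1206 H3K27Ac tags (5.99, 5.40 to 6.59), but its H3K4Me1 was 11, 26, 94, 88 and 28.

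**Figure D5:**
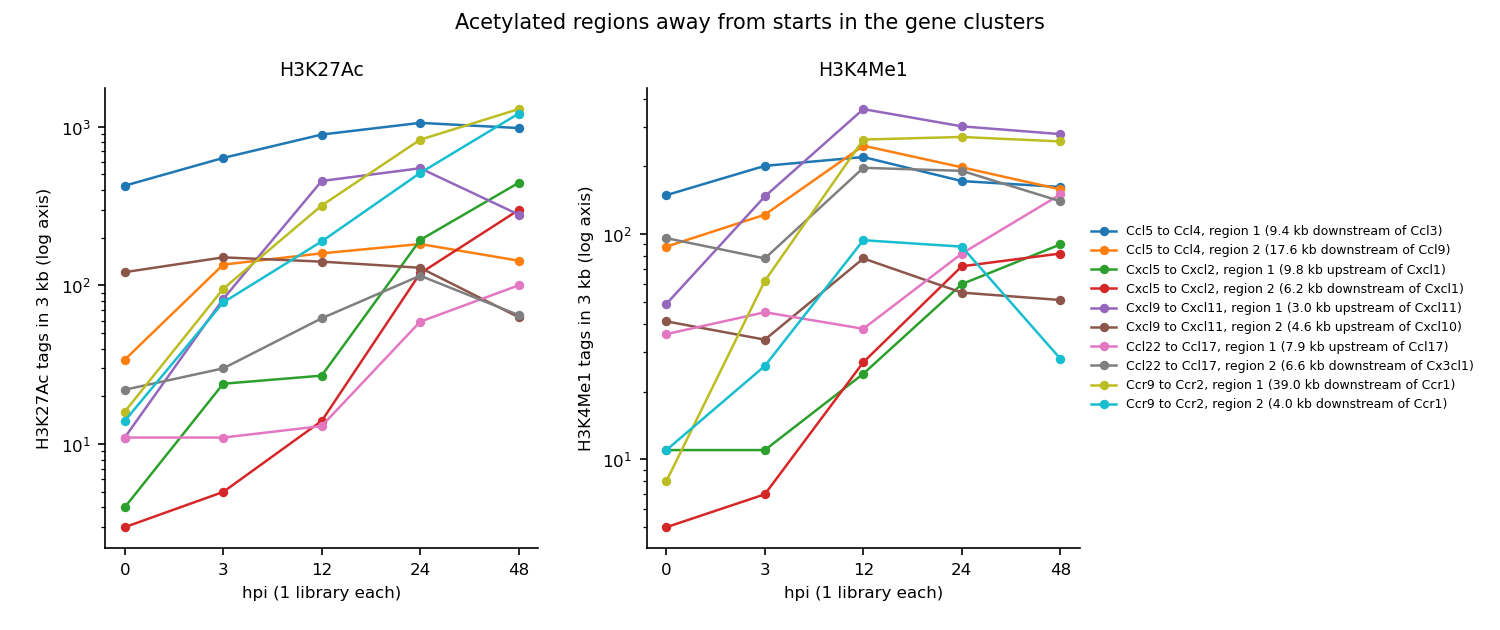
H3K27Ac (left) and H3K4Me1 (right) tags in 3 kb (log axes) by time at the 10 named acetylated regions, all more than 2.5 kb from an annotated protein-coding start. They were named by their highest H3K27Ac bin at 48 hpi in each cluster, a choice that favours a rise to that time. The region in an intron of Ccr1 and that 39024 bp downstream of the Ccr1 start go from 14 and 16 H3K27Ac tags to 1206 and 1287, the 2 at Cxcl1 are highest at 48 hpi, and the region upstream of Cxcl11 is highest at 24 hpi. The start of Cxcl11 is not annotated as protein-coding and was not counted in the 2.5 kb rule.

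The middle 300 bases of the highest bin are shown for the 3 distal regions with the largest H3K27Ac change, on the plus strand of mm9, with the same letters in capitals: chr9:123844351-123844650, chr9:123879351-123879650 and chr5:91310351-91310650.
39024 bp downstream of Ccr1: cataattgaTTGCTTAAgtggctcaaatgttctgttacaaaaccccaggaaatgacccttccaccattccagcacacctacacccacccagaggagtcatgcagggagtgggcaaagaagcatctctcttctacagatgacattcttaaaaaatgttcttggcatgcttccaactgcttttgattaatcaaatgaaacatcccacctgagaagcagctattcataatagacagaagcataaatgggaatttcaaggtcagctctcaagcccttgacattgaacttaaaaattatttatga
Intron of Ccr1: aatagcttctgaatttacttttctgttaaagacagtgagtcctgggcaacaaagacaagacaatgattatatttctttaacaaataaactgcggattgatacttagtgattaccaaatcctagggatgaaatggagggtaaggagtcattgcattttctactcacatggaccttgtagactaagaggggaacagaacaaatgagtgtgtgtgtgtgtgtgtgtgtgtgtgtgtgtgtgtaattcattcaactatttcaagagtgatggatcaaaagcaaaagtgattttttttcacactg
9766 bp upstream of Cxcl1: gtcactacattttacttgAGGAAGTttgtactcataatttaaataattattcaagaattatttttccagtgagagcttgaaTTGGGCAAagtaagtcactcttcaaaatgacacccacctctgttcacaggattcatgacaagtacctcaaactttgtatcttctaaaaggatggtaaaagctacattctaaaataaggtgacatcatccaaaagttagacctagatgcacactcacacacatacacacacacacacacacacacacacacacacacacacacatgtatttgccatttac

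TTGCNNAA was found in the first and in the third, which also held AGGAAGT, and none of the 6 in the second. Over the 10 named regions TTGCNNAA was in 5, against 13% of the 31963 distal regions acetylated at 48 hpi cut in the same way. AGGAAGT was in 2 (14.2% of all), TGANTCA in 2 (14.6%), GGNNTTTCC in 1 (4.94%), TTTCNNTTT in 2 (16.6%) and TGTGGT in 4 (24.2%). The 10 were named by their highest bin at 48 hpi and the 31963 were not, so the shares compare unlike sets.

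The marks at 0 hpi placed the 34 starts in 3 states. The 0 hpi H3K27Ac library had 523 tags in the Igh segment. The other 13 libraries, which include H3K4Me1 and H3K27Me3 at 0 hpi, had 23 together. The states thus combine libraries that stood apart there, and whether their cells were alike was not tested. H3K27Ac marked 10 of the windows at 0 hpi (46.2% of all starts), namely 3 ligands (Ccl3, Ccl6 and Ccl9) and 7 receptors, and 2 of these 10, Ccl6 and Ccr1, were higher at 48 hpi, where 2.48% of the 10318 starts in that state were. H3K4Me1 marked 15 (44.7% of all starts), and 5 of these were below the marked level of H3K27Ac (Ccl12, Ccl24, Cxcl3, Cxcl5 and Cxcl10). Of the 5, 4 were higher in H3K27Ac at 48 hpi, where 22.4% of the 975 starts in that state were. Ccl12 was exactly at the H3K4Me1 threshold with 27 tags, and Cxcl10 just below that of H3K27Ac with 33. A small change in either threshold would move these genes to another state. The remaining 19 had neither, and 7 of them were higher, where 6.34% of 11049 such starts were. At 48 hpi H3K27Ac marked 15 of the windows (47.1% of all starts) and H3K4Me1 24 (40.6%). Higher by 2-fold and also marked in H3K27Ac at 48 hpi were 9 (3.19% of all starts), namely Ccl2, Ccl4, Ccl6, Ccl12, Cxcl2, Cxcl3, Cxcl5, Ccr1 and Ccr3. H3K4Me1 was higher without a marked H3K27Ac window at 48 hpi at 7 (1.48% of all starts), namely Ccl7, Ccl17, Ccl22, Ccl24, Cxcl11, Cxcr2 and Cx3cr1.

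At 3 hpi H3K27Ac was at least 2-fold higher at 7 genes (4.42% of all starts), all of them ligands (Ccl2, Ccl6, Ccl7, Ccl9, Ccl12, Cxcl12 and Cx3cl1), though Cxcl12 was at 3 tags at 12 hpi, and Cx3cl1 had 12 tags or fewer at every time. It was lower at 2 (1.84% of all starts), the receptors Ccr6 and Ccr7.

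H3K27Me3, the mark of Polycomb repression, marked 19 of the 34 windows at 0 hpi (21.8% of all starts) and 20 at 48 hpi (23.6%), the added gene being Ccl24. At Ccl11 it was 65, 81, 117, 121 and 140 tags (1.05, 0.64 to 1.47), the one call higher. It was 0.91 with a pseudocount of 20 and 0.89 with scaling by bins enriched at all 5 times. At Cxcl2 it was 91, 67, 94, 102 and 96, at Ccl4 56, 54, 79, 65 and 87, and at Ccl12 68, 82, 111, 90 and 109. At Ccl2 it was 35, 52, 85, 42 and 28, highest at 12 hpi. Ccl7 had 62 to 134 tags, Cx3cl1 91 to 115 and Cx3cr1 65 to 81, all marked throughout, while Cxcl3 and Ccl24 had 43 to 73 and 43 to 72, Ccr3 had 29 to 41 and Cxcl5 11 to 25. Among all 10318 starts acetylated at 0 hpi, 11.5% were also marked by H3K27Me3 then. Of the 10 such starts among the 34 genes, Ccr6 and Ccr7 were marked by H3K27Me3 at every time, with 97 to 115 and 85 to 132 tags. Ccl6 was marked at 12 hpi only, with 33 to 51. The other 7 were never marked, with 32 to 40 at Ccl3 and Cxcr5, and 3 to 28 at Ccl9, Ccr1, Ccr2, Cxcr3 and Cxcr4. Over the Ccl2 to Ccl8 cluster H3K27Me3 had 1129, 1188, 1972, 1881 and 1864 tags (0.72, 0.62 to 0.83), in the span where H3K27Ac and H3K4Me1 were higher too. Marks on the same and on different cells cannot be told apart in such libraries. The 0 hpi libraries of H3K27Ac and H3K27Me3 also stood apart in the Igh segment, which limits any overlap of these marks at 0 hpi.

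Of 25 further genes of the pathway, 24 had a protein-coding start, and 2 were higher and 4 lower in H3K27Ac (5.25% and 9.46% of all starts). Ccr4, the receptor of Ccl17 and Ccl22, had 12, 20, 72, 76 and 53 tags (log2 change 1.77). Pf4 was at −2.06, the scavenger receptor gene Ccbp2 with 71, 145, 35, 10 and 17 tags at −1.79, Ccrl1 with 23, 45, 19, 9 and 4 at −1.64, and Ccl25, the ligand of Ccr9, with 273, 205, 151, 128 and 85 at −1.63. From 12 to 48 hpi Ccr4 went from 72 to 53 tags and Pf4 from 53 to 44. Ccbp2 went from 35 to 17 and Ccl25 from 151 to 85. With 12 hpi in place of 0 hpi the changes of Ccr4, Pf4, Ccbp2 and Ccl25 would not be past 2-fold. Ccrl1, which went from 19 to 4 tags, would still be past 2-fold lower, on few tags. Ccl19 had 0 tags in all 15 libraries, so nothing can be said of its start.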

How the data were processed

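ChIP-seq tags were taken as the authors deposited them, as positions of 36 bp reads with no score used. Per the study's methods and the submitters' processing notes, reads were aligned to mm9 with Eland or Bowtie without mismatches, and identical and non-unique tags were removed. The deposited files differ in this last step, with up to 205 tags at 1 position in H3K4Me1 at 0 hpi, so 1 tag per position was kept. 3 files end in 2 lines with no position, which were left out. Counts are therefore of tags from the deposited files: tag middles were counted in windows of 3 kb (5 kb for H3K27Me3) after each mark's libraries were thinned to equal depth with a fixed seed. The start of a gene was that shared by most of its protein-coding transcripts, ties going to the most upstream, from the mm9 annotation; for Cxcl11 the same rule was used over its transcripts of any type.

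A bin was mappable when it held a tag in at least 1 of the 15 libraries, and enriched at a Poisson upper tail below 0.001 over the mean of mappable bins (16 H3K27Ac or 13 H3K4Me1 tags in 1 kb, 50 H3K27Me3 tags in 5 kb). The threshold of a marked window used the same rule. An earlier pass defined mappable bins mark by mark; the definition was changed after its results had been seen, to that of an earlier analysis of these files. Neighbouring enriched bins were joined into regions across gaps of up to 1 bin. Listed genes within 250 kb of each other formed a cluster, with 10 kb added on each side. In each cluster the 2 regions with the highest bin at 48 hpi and no protein-coding start within 2.5 kb of it were named. This choice favours a rise to 48 hpi at the named regions, and regions lost by then could not be named.

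Intervals of changes are exact binomial (Clopper-Pearson) and those of counts exact Poisson, at 95%, and cover counting error only. With 1 library per group no test was made. All 34 listed genes are given, those past 2-fold in H3K27Ac in full. Up to 5 other pathway genes were named by size of change. Promoter sequences are those of up to 6 genes with the largest upward H3K27Ac change and at least 50 tags at 48 hpi. The genes, lists and alternatives were chosen with earlier results of these data known. The calls were tested on simulated data with counting error only, at starts with many tags at 0 hpi. Starts with few tags at 0 hpi, as at most genes called higher in H3K27Ac, were outside that test. Python 3.11.15, numpy 2.4.6, scipy 1.17.1, pandas 2.3.3 and matplotlib 3.10.9 were used. Alternatives covered scaling, thinning, identical tags, window, pseudocount, choice of start, cluster flanks and the 12 hpi H3K27Ac library in place of that of 0 hpi.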

Additional observations from a re-analysis of the deposited data

How the results depend on the processing

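Under 12 alternatives, 1177 values of 118 results were compared with those reported: 1064 stayed within counting error or 1.5 times, 106 moved and 7 reversed, the last counted only for called changes, medians and cluster totals, so that Ccl3 and Ccl9 (−0.48 and −0.22 with 12 hpi in place of 0 hpi) are among those that moved. The cause was not tested unless given here. With 12 hpi in place of 0 hpi, which leaves out differences before 12 hpi, the log2 changes of Ccl12, Ccl6, Ccl7, Ccr6 and Ccr7 in H3K27Ac were −0.89, −0.14, −0.38, 0.93 and 0.25, genes higher in H3K27Ac numbered 7 and lower 0 (2.39% and 4.69% of all starts), and the clusters Ccl2 to Ccl8, Ccl22 to Ccl17, Ccl5 to Ccl4, Ccr9 to Ccr2, Cxcl5 to Cxcl2 and Cxcl9 to Cxcl11 were at 0.27, 0.57, 0.30, 0.65, 2.17 and −0.88. Scaled by bins enriched at all 5 times, 1 gene was lower in H3K27Ac (5.03% of all starts) and 0 higher in H3K27Me3 (0.304%), and the same clusters were at 3.01, 1.19, 2.27, 1.74, 1.89 and 1.83. Scaled by background bins, 14 genes were highest at 24 hpi and 2-fold above 0 hpi and 10 were 2-fold lower at 48 than 24 hpi, against 1 of the latter when scaled by enriched bins (alternatives chosen after seeing the data), Ccl5 to Ccl4 was at 1.78 and Ccr9 to Ccr2 at 1.25; with tags as deposited the latter was at 1.38. Without flanks Cxcl9 to Cxcl11 was at −0.17. In the small windows 2 genes were higher and 1 lower in H3K27Me3 (2.05% and 2.02% of all starts), and 2 lower in H3K4Me1 (7.48%). Lower in H3K4Me1 were 3 with a pseudocount of 1 (24.9% of all starts) and 2 with the start of most H3K27Ac (10%), and 0 were higher in H3K27Me3 with a pseudocount of 20 (0.0806%). No paired analysis was possible because no group had more than 1 library. Depth limits starts with few tags, where a handful of tags decides a call.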
